A study of Saccharomyces cerevisiae with 4 samples.

Results

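The genes described here mostly build amino acids in budding yeast, and include a regulator (ARG80), a carrier (ORT1) and a breakdown enzyme (GDH2). They were chosen by name: a probe had to carry exactly 1 gene symbol in the array's annotation, have a value on all 4 arrays and bear a symbol of an amino acid synthesis family (such as ARG, HIS, LEU, ILV, LYS, TRP, ARO, SER, HOM, BAT or GDH, followed by a number). This gave 39 probes and 38 genes, out of 3099 genes with 1 symbol and 5946 features in all (a feature is a gene, or a probe with no single symbol). The R64 gene table holds 83 genes whose symbols fit the rule. Of the others, 5 were on probes shared with another symbol and 40 had no probe under the rule, so most pathways are seen in part. The 38 genes fall into 12 groups. Arginine and ornithine have 7 genes, the branched-chain amino acids 7, and the shared aromatic route with phenylalanine and tyrosine 5. There are 3 each for lysine, for glutamate and for aspartate, asparagine and alanine. A further 2 each stand for threonine with homoserine, for tryptophan and for serine. Histidine and proline have 1 each, and 2 are others (ARG80 and ARO5).

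Each array compared RNA of 2 transformants of the laboratory strain W303-1A. The first made CadA, a bacterial P-type ATPase from Listeria monocytogenes, and the second made its mutant D398A. Both had grown at 30 °C to an OD600 of 0.4 in SD minimal medium with all amino acids and adenine added, and both had then received 1 µM cadmium for 1 h, so no untreated cells enter the comparison. CadA RNA was labelled with Cy5 on arrays 1 and 3 and with Cy3 on arrays 2 and 4. The labels do not name separate cultures, so the spread between arrays, and every p-value built on it, may be technical, and 4 arrays allow little precision. Neither the promoter nor the marker of the CadA construct is named in the labels.

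Yeast makes all of its protein amino acids when the medium lacks them. Most of these genes are under general amino acid control, in which starvation for any amino acid raises the transcription factor Gcn4, which then switches on enzymes of many pathways together. On top of this stand pathway regulators such as Leu3 for the branched-chain amino acids and Arg80 for arginine, and end products inhibit the first enzymes of their own routes. W303-1A carries mutations in HIS3, LEU2 and TRP1, as well as in ADE2 and URA3, and depends on the medium for histidine, leucine and tryptophan. LEU2 and TRP1 had no probe under the rule, and HIS3 was found only on probes that also carry the symbol DED1. The marker genes among the synthesis genes therefore have no value here. ADE2, a marker outside these pathways, read 0.79, -0.71, -0.12 and -0.40 on arrays 1 to 4.

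All values are log2 ratios per array; base 2 is an assumption, since the table does not state it. Which dye forms the numerator is likewise unstated, as is whether the ratios of the dye-swapped arrays had been turned before deposition. Each gene is therefore given in 2 readings. In deposited signs the values are taken as they stand; if the table was already turned, their mean is the strain difference. In turned signs the values of arrays 1 and 3 are reversed; if the table was not turned, their mean is the strain difference, D398A over CadA with Cy5 as numerator and CadA over D398A with Cy3. In that case the deposited mean holds what follows the dye. No strain is named for either side, and per-array values below are in deposited signs.

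The position of a probe on the slide moved with its value. The 48 print blocks (areas of the slide, named in the probe identifiers) had medians between -0.57 and 0.87 on array 1, -0.76 and 1.83 on array 2, -0.56 and 0.41 on array 3, and -0.53 and 0.31 on array 4. The member probes lay in 30 of these blocks. Over the 39 probes, the value correlated with the median of its own block at r = 0.23, 0.74, 0.60 and 0.68 on arrays 1 to 4, a description of probes that share arrays and blocks. Means after subtraction of each block's median ("block-centred") are therefore given beside many of the values, though not for every gene.

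**Figure D1:**
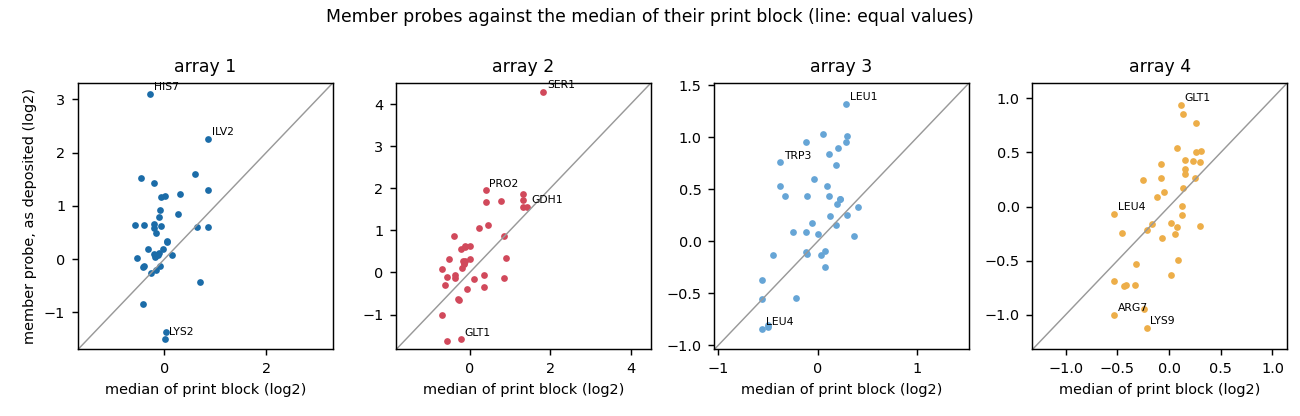
Log2 ratio of each of the 39 member probes (vertical axis, as deposited) against the median log2 ratio of all probes in its print block (horizontal axis), with 1 panel per array and a line of equal values. On array 2 the points follow their blocks most closely (r = 0.74), and SER1 stands at 4.30 in a block whose median was 1.83.

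No amino acid synthesis gene passed the threshold in either reading. In limma's fit over all 5946 features, 0 of 38 members had an adjusted p under 0.05 in turned signs and 0 of 38 in deposited signs, as did 0.0% of all features in each. At an unadjusted p under 0.05 there were 0 members in turned signs, against 1.88% of features, and 5 members (13.2%) in deposited signs, against 11.7% of features. Those 5 were LEU1, ARO4, ILV3, SER1 and ARG4, all on the positive side, with limma adjusted p = 0.42 each, which was also the smallest over all features. The smallest adjusted p of a member in turned signs was 1.00. After block centring the members with an unadjusted p under 0.05 numbered 1 in turned signs (2.62% of features) and 9 in deposited signs (18.2%), again with 0 past the adjusted threshold. A fit with both readings as coefficients, added after the data were seen, gave 0 such members in turned signs (2.12% of features) and 4 in deposited signs (8.24%), and with block centring 1 (4.07%) and 10 (16.6%).

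As a group, the members leaned to the positive side in deposited signs. The mean lay above 0 for 28 of 38 genes, against 46.5% of all features, and the median of the 38 means was 0.28, against -0.03 for all features. On single arrays the members' median was 0.54, 0.29, 0.25 and -0.07 for arrays 1 to 4. The lean was thus seen on arrays 1, 2 and 3 and not on array 4. A value above 0 on all 4 arrays was found for 9 members (23.7%), against 12.4% of features, and a value below 0 on all 4 for 0 members, against 12.3%. After block centring the median stayed at 0.28, with 26 means above 0 (48.6% of features) and 10 members above 0 on every array (16.2% of features), and 1 member, ARG2, lay below 0 on every array (15.5% of features).

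In turned signs the lean was smaller and on the other side. The mean lay below 0 for 26 of 38 genes and above 0 for 12, against 47.4% of features above 0, and the median was -0.14 against -0.01 for all features. The array medians had no common sign, at -0.54, 0.29, -0.25 and -0.07. A value below 0 on all 4 arrays was found for 4 members (10.5%), BAT2, HOM2, LYS5 and LYS9, against 3.58% of features, and above 0 on all 4 for 0 members, against 3.4%. Array 1 decided part of this count, since without it 20 means lay above 0 and 18 below. After block centring the median was -0.09, with 14 means above 0 (48.5% of features) and 24 below, and only LYS5 and LYS9 were below 0 on all arrays (3.67% of features), while LEU9 was above 0 on all 4 (4.59%).

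**Figure D2:**
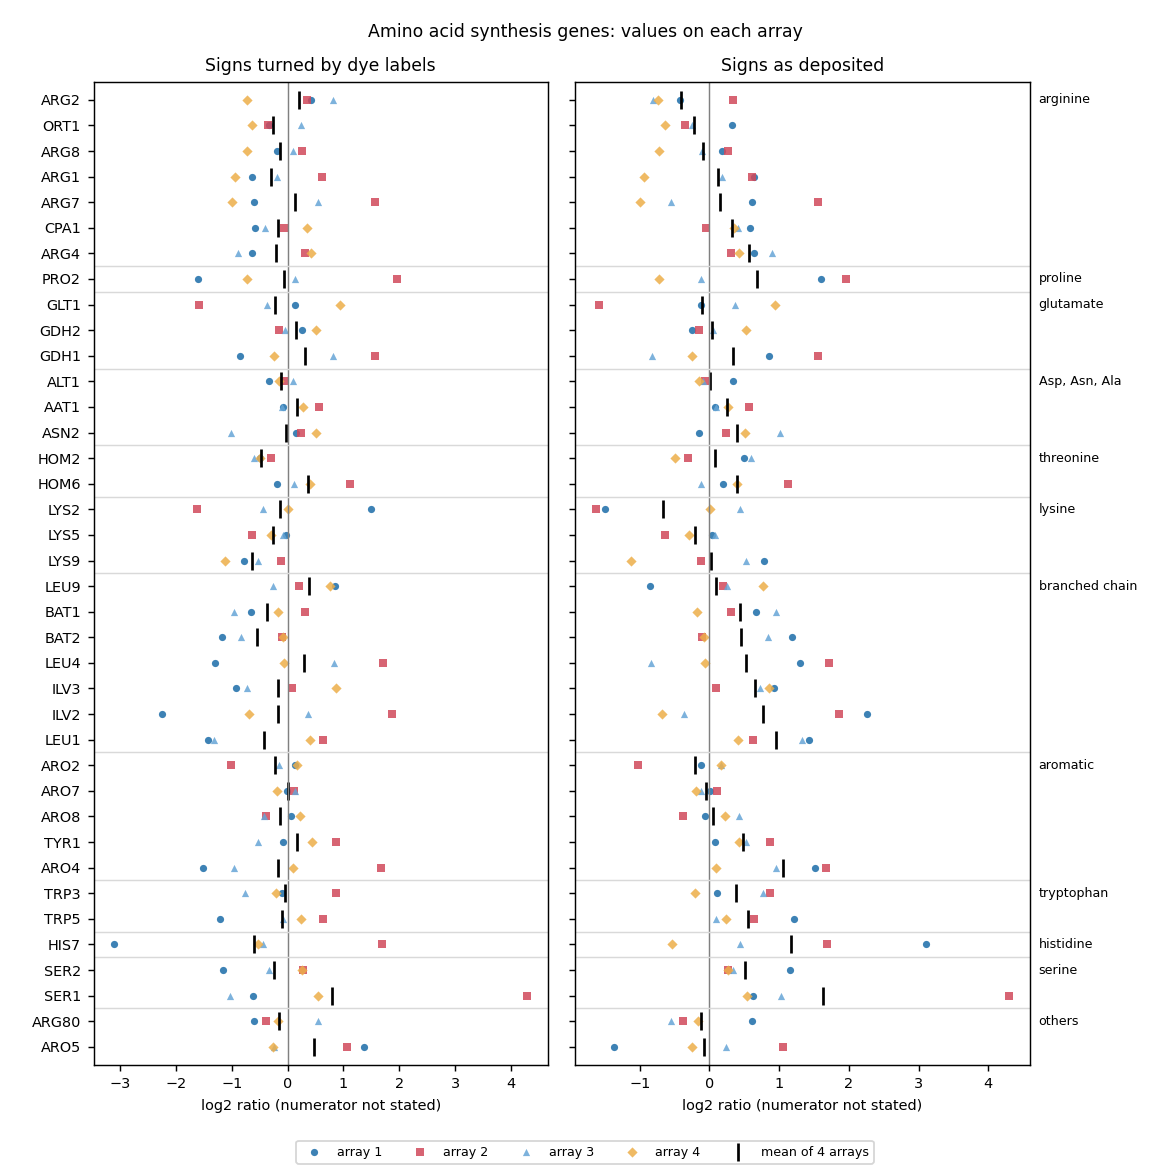
Log2 ratio of the 38 genes on each array (coloured symbols) and their mean (black bar), grouped by end product from arginine at the top to the 2 other genes at the bottom, in turned signs (left) and deposited signs (right). In the right panel 9 genes have all 4 symbols above 0, and in the left panel 4 genes have all 4 below 0.

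The branched-chain pathway (isoleucine, valine and leucine) had the highest median of the groups with 3 or more genes in deposited signs. All 7 means lay above 0, with a median of 0.53 (0.49 block-centred). The pathway's medians on arrays 1 to 4 were 1.18, 0.31, 0.73 and -0.06, and block-centred 1.00, 0.46, 0.55 and 0.11. Array 4 was thus the lowest in both, and above 0 only after block centring. In turned signs 5 of the 7 means lay below 0, with a median of -0.18 (-0.30 block-centred), which ran from -0.60 without array 2 to 0.07 without array 1.

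LEU1, isopropylmalate isomerase, an iron-sulphur enzyme and a classical target of Leu3, read 1.43, 0.63, 1.32 and 0.41 on arrays 1 to 4. All 4 arrays were above 0, and arrays 1 and 3 stood above arrays 2 and 4. Its deposited mean was 0.95 ± 0.50 (SD, n = 4), or 1.93-fold, and 0.85 block-centred. In turned signs it was -0.43 ± 1.10, with the 2 dye orientations on opposite sides of 0.

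ILV3, dihydroxyacid dehydratase, another iron-sulphur enzyme, which serves all 3 branched-chain products, read 0.92, 0.09, 0.73 and 0.86. It was above 0 throughout, with array 2 lowest, in a block whose median there was -0.70. Its deposited mean of 0.65 ± 0.38 became 0.76 ± 0.19 after block centring, and its turned mean was -0.18 ± 0.82, or -0.01 block-centred. By limma's p ILV3 stood 29th of 5946 features in the block-centred deposited values (adjusted p = 0.25).

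ILV2, the catalytic subunit of acetolactate synthase, read 2.26, 1.86, -0.37 and -0.68, high on the first pair of arrays and low on the other. LEU4, the main isopropylmalate synthase, read 1.30, 1.71, -0.84 and -0.06. Both probes lie in print block 41, as does that of ARG7, and the medians of this block were 0.87, 1.33, -0.56 and -0.53. The deposited mean of ILV2 was 0.77 ± 1.51 (0.49 ± 0.66 block-centred) and that of LEU4 was 0.53 ± 1.19 (0.25 ± 0.36). LEU9, the second isopropylmalate synthase, read -0.85, 0.20, 0.26 and 0.77. Its deposited mean was 0.09 ± 0.68 and its turned mean 0.39 ± 0.52, which became 0.33 ± 0.20 after block centring. The difference of LEU4 minus LEU9 was 2.15, 1.51, -1.10 and -0.83 on arrays 1 to 4. It thus changed sign between the first and the last pair of arrays. Its mean was 0.43 ± 1.64 in deposited signs and -0.09 ± 1.71 in turned signs (0.15 and -0.16 block-centred). Block-centred, LEU4 read 0.44, 0.39, -0.28 and 0.47, and LEU9 read -0.42, 0.35, -0.04 and 0.51.

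The branched-chain aminotransferases form a pair of isoenzymes. BAT1, the mitochondrial enzyme, read 0.66, 0.31, 0.95 and -0.18, and BAT2, the cytosolic one, read 1.18, -0.11, 0.84 and -0.08. Both were highest on arrays 1 and 3, which carry CadA in Cy5. Deposited means were 0.44 ± 0.49 for BAT1 and 0.46 ± 0.65 for BAT2, and turned means were -0.37 ± 0.56 and -0.55 ± 0.55. BAT2 was below 0 on all 4 arrays in turned signs only narrowly, at -0.11 and -0.08 on arrays 2 and 4, and after block centring array 2 stood at 0.46. BAT1 minus BAT2 averaged -0.02 ± 0.39 in deposited signs and 0.18 ± 0.33 in turned signs. Block-centred, the averages were -0.20 and -0.01, so that which reading held the larger difference depended on the centring.

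The lysine genes were the one group of 3 or more with a median below 0 in both readings, at -0.26 in turned signs (-0.21 block-centred) and -0.20 in deposited signs (-0.07). Each of these medians was the mean of a single gene, LYS5. LYS9, a saccharopine dehydrogenase, read 0.79, -0.12, 0.53 and -1.12. It changed sign with the dye orientation, and its turned mean of -0.64 ± 0.42 was the lowest of the 38. Its probe lies in print block 46, with medians of -0.10, 0.85, -0.38 and -0.22. After block centring its turned values were -0.89, -0.98, -0.91 and -0.90, a mean of -0.92 ± 0.04. By limma's p LYS9 then stood 11th of 5946 features (unadjusted p = 0.0019), with an adjusted p of 0.82. Counting LYS9 itself, 7 features had a block-centred turned mean as low or lower. In deposited signs its mean was 0.02 ± 0.85.

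LYS5, which attaches the pantetheine group that Lys2 needs, read 0.04, -0.64, 0.08 and -0.29. These are small values, all below 0 once turned, with a turned mean of -0.26 ± 0.27 (-0.21 ± 0.11 block-centred). LYS2, aminoadipate reductase, read -1.50, -1.63, 0.44 and 0.00. It had the lowest deposited mean of the members at -0.67 ± 1.05, carried by arrays 1 and 2, and a turned mean of -0.14 ± 1.29. Its block medians on those arrays were 0.02 and -0.57, and its block-centred deposited mean was -0.59 ± 0.84.

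The threonine and homoserine branch starts from aspartate. HOM3, THR1 and THR4 had no probe under the rule, so only HOM2 and HOM6 stand for it here. HOM2, aspartate semialdehyde dehydrogenase, read 0.50, -0.30, 0.60 and -0.49. Like LYS9, it was above 0 on arrays 1 and 3 and below 0 on the others. Its turned mean was -0.47 ± 0.12, the smallest SD of the 4 members with 1 sign. Counting HOM2 itself, 156 features had a turned mean as low or lower. Its block had a median of -0.61 on array 2, and block-centred it read 0.30 there, on the other side, with a turned mean of -0.39 ± 0.46. HOM6, homoserine dehydrogenase, which acts right after Hom2, read 0.20, 1.12, -0.12 and 0.40. Its turned mean was 0.36 ± 0.56 (0.16 block-centred), on the opposite side from HOM2, and its deposited mean 0.40 ± 0.53.

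Arginine genes pointed in several directions. The 7 means had a median of 0.12 in deposited signs (0.07 block-centred) and of -0.18 in turned signs (-0.12). The sign of the deposited median was not stable, since it was -0.05 without array 1, -0.18 without array 2, -0.17 with arrays scaled to 1 spread and -0.25 with array weights. ARG4, argininosuccinate lyase, the last enzyme of the route, read 0.64, 0.31, 0.90 and 0.42. All arrays were above 0, although its print block lay at -0.40 and -0.52 on arrays 1 and 2. The deposited mean was 0.56 ± 0.26, or 1.48-fold, and 0.68 ± 0.36 block-centred, while the turned mean was -0.20 ± 0.66. CPA1, the small subunit of the carbamoyl phosphate synthetase of arginine synthesis, read 0.58, -0.06, 0.41 and 0.34, a deposited mean of 0.32 ± 0.27, and lay above 0 on all arrays after block centring (0.37 ± 0.29).

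ARG2, acetylglutamate synthase, the committing step, read -0.43, 0.34, -0.81 and -0.73. Its deposited mean of -0.41 ± 0.53 was the lowest of the group and lay on the opposite side from ARG4. After block centring it was -1.12, -0.56, -0.30 and -0.30, below 0 throughout, with a mean of -0.57 ± 0.39 (limma adjusted p = 0.25). ARG1, argininosuccinate synthetase, the enzyme before ARG4, read 0.64, 0.61, 0.18 and -0.94. Its turned mean was -0.29 ± 0.68 (-0.36 ± 0.82 block-centred) and its deposited mean 0.12 ± 0.74 (0.37 ± 0.81 block-centred). ARG1 was lower than ARG4 on array 3 (0.18 against 0.90) and on the opposite side of 0 on array 4.

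The remaining arginine genes were ARG7, ARG8 and ORT1, followed here by the regulator ARG80. ARG7, ornithine acetyltransferase, read 0.61, 1.56, -0.55 and -1.0, close to the medians of its print block 41 on arrays 1 to 3. Its block-centred means were 0.01 ± 0.34 in turned signs and -0.12 ± 0.31 in deposited signs. ARG8, acetylornithine aminotransferase, read 0.18, 0.26, -0.10 and -0.72, with means of -0.13 ± 0.43 (turned) and -0.09 ± 0.45 (deposited). ORT1, the carrier that exports ornithine from the mitochondrion, read 0.33, -0.36, -0.25 and -0.63, a deposited mean of -0.23 ± 0.40 and a turned mean of -0.27 ± 0.37. Block-centred, these means were -0.35 ± 0.45 and -0.33 ± 0.48. ARG80, a regulator of arginine genes that acts with Mcm1, read 0.61, -0.38, -0.55 and -0.16. Its block had a median of 0.64 on array 1, and block-centred its means were 0.01 ± 0.27 (turned) and -0.17 ± 0.18 (deposited).

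The aromatic route begins with DAHP synthase and ends, after chorismate, in phenylalanine, tyrosine and tryptophan. ARO4, the tyrosine-inhibited DAHP synthase, read 1.52, 1.67, 0.95 and 0.09. All arrays were above 0, array 4 only just. The deposited mean was 1.06 ± 0.71, or 2.08-fold, and 1.13 ± 0.73 block-centred. Counting ARO4 itself, 55 features had a deposited mean as high or higher. In turned signs its mean was -0.18 ± 1.40. TYR1, prephenate dehydrogenase of the tyrosine branch, read 0.08, 0.87, 0.53 and 0.43, again above 0 throughout, with a deposited mean of 0.48 ± 0.32 (0.54 block-centred) and a turned mean of 0.17 ± 0.61.

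The other aromatic genes had deposited means of smaller size. ARO2, chorismate synthase, read -0.13, -1.02, 0.16 and 0.17, and its value on array 2 went with a block median of -0.70 there. Its means were -0.21 ± 0.56 (deposited) and -0.22 ± 0.55 (turned), and block-centred -0.09 ± 0.15 and -0.05 ± 0.18. ARO7, chorismate mutase, read 0.01, 0.11, -0.13 and -0.19, with the smallest SD of the members in deposited signs, 0.14, and an SD of 0.15 in turned signs. Block centring widened this, to 0.55, 0.31, -0.16 and -0.27, with SDs of 0.39 (deposited) and 0.40 (turned). ARO8, aromatic aminotransferase I, had 2 probes. In print block 17 it read -0.21, -0.65, 0.43 and 0.13, and in block 19 it read 0.09, -0.12, 0.41 and 0.30. The probes agreed in sign on arrays 2, 3 and 4 and not on array 1, and their average gave 0.05 ± 0.35 in deposited signs.

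Tryptophan genes had a deposited median of 0.46 (0.48 block-centred) and a turned median of -0.08 (-0.16). TRP5, tryptophan synthase, read 1.21, 0.64, 0.09 and 0.24, above 0 on every array. Its deposited mean was 0.55 ± 0.50, and 0.62 ± 0.25 block-centred. TRP3, which makes indole glycerol phosphate and forms part of anthranilate synthase, read 0.11, 0.87, 0.76 and -0.21, a deposited mean of 0.38 ± 0.52. Its array 2 value matched the median of print block 46, 0.85, and block-centred it read 0.21, 0.02, 1.14 and 0.01. The turned means were -0.11 ± 0.80 for TRP5 and -0.05 ± 0.68 for TRP3.

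Histidine synthesis was represented by HIS7 alone, the imidazole glycerol phosphate synthase. It read 3.10, 1.69, 0.44 and -0.53, the second highest value of any member on any array. Array 1 carried most of the deposited mean of 1.17 ± 1.58, which was 0.53 without that array. Its print block had a median of -0.28 on array 1, and the block-centred mean was 1.21 ± 1.53. In turned signs the mean was -0.60 ± 1.96. HIS7 and ARO4 are next to each other among the genes of the R64 table and are the one such pair among the members. HIS7 minus ARO4 was 1.58, 0.02, -0.51 and -0.62 on arrays 1 to 4.

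Serine genes had a deposited median of 1.06 for the pair (0.77 block-centred) and a turned median of 0.28 (0.06), which was -0.39 without array 2 and -0.13 with array weights. SER1, phosphoserine aminotransferase, read 0.62, 4.30, 1.03 and 0.54. Array 2 stood far above the others, in print block 48, whose median there was 1.83, the highest of all blocks. The deposited mean was 1.62 ± 1.80 (1.15 ± 0.91 block-centred), and 0.73 without array 2. With arrays 1 and 2, and arrays 3 and 4, averaged before the fit, SER1 passed in deposited signs (limma adjusted p = 0.0452), the one setting in which a member did. The turned mean of 0.80 ± 2.43 was the highest of the members and became -0.37 without array 2. SER2, phosphoserine phosphatase, the last step, read 1.16, 0.27, 0.34 and 0.26, with a deposited mean of 0.51 ± 0.44. Its block-centred values on arrays 3 and 4 were -0.07 and 0.01, so its position above 0 there went with its block. PRO2, the gene of proline synthesis measured here (glutamyl phosphate reductase), read 1.60, 1.95, -0.13 and -0.72, with block medians of 0.60, 0.39, -0.45 and -0.42. Its means were 0.68 ± 1.30 (deposited) and -0.06 ± 1.52 (turned).

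The remaining genes mostly handle ammonia and amino groups. GDH1, the glutamate dehydrogenase of synthesis, read 0.86, 1.56, -0.82 and -0.25, following block medians of 0.26, 1.43, -0.50 and -0.46. Its turned mean was 0.32 ± 1.08, and 0.02 ± 0.41 after block centring, and its deposited mean was 0.34 ± 1.07. GDH2, the glutamate dehydrogenase of breakdown, read -0.26, -0.15, 0.05 and 0.52. GLT1, glutamate synthase, read -0.13, -1.59, 0.36 and 0.94, with means of -0.22 ± 1.06 (turned) and -0.10 ± 1.08 (deposited). AAT1, the mitochondrial aspartate aminotransferase, read 0.08, 0.56, 0.09 and 0.27, above 0 throughout at a deposited mean of 0.25 ± 0.22. ASN2, an asparagine synthetase, read -0.15, 0.23, 1.01 and 0.51 (deposited mean 0.40 ± 0.49), and lay above 0 on all arrays once blocks were centred (0.41 ± 0.21). ALT1, an alanine transaminase, read 0.34, -0.06, -0.09 and -0.15, a deposited mean of 0.01 ± 0.22 and a turned mean of -0.12 ± 0.18. ARO5, for which no role is given here, read -1.37, 1.06, 0.24 and -0.26, and had the second highest turned mean of the members, 0.48 ± 0.85.

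**Figure D3:**
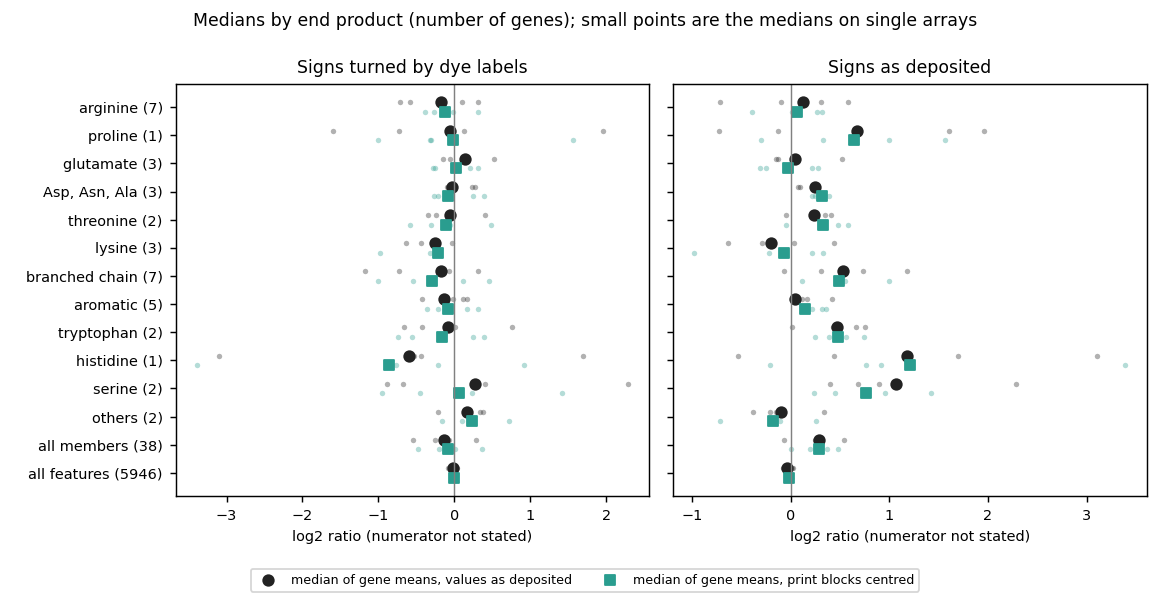
Median of the gene means by end product (large symbols, values as deposited in black and block-centred in green) and the medians on the 4 arrays (small points), on the log2 scale, in turned signs (left) and deposited signs (right), with all 38 members and all 5946 features at the bottom. In deposited signs the medians of serine, histidine, proline, branched-chain and tryptophan genes lay between 0.46 and 1.17, and lysine lay at -0.20.

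The pathways can be set side by side. In deposited signs the medians ran from -0.20 (lysine) to 0.53 (branched chain) among the 6 groups with 3 or more genes, while the SD of a group's median over the 4 arrays ran from 0.10 (aspartate, asparagine and alanine) to 0.57 (arginine). In turned signs they ran from -0.26 (lysine) to 0.14 (glutamate), with SDs from 0.20 to 0.67. The glutamate value was that of GDH2, the enzyme of breakdown, and the group's median was 0.02 block-centred. GDH1 (0.32) and GLT1 (-0.22) lay on opposite sides of 0. The 9 genes above 0 on every array in deposited signs were spread over 6 groups: ARG4, AAT1, ILV3, LEU1, ARO4, TYR1, TRP5, SER1 and SER2. After block centring 7 of the 9 were still above 0 on every array, the exceptions being AAT1 (-0.08 on array 1) and SER2 (-0.07 on array 3). No difference between pathways was tested, since the pathway groups were made with results of these data known.

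**Figure D4:**
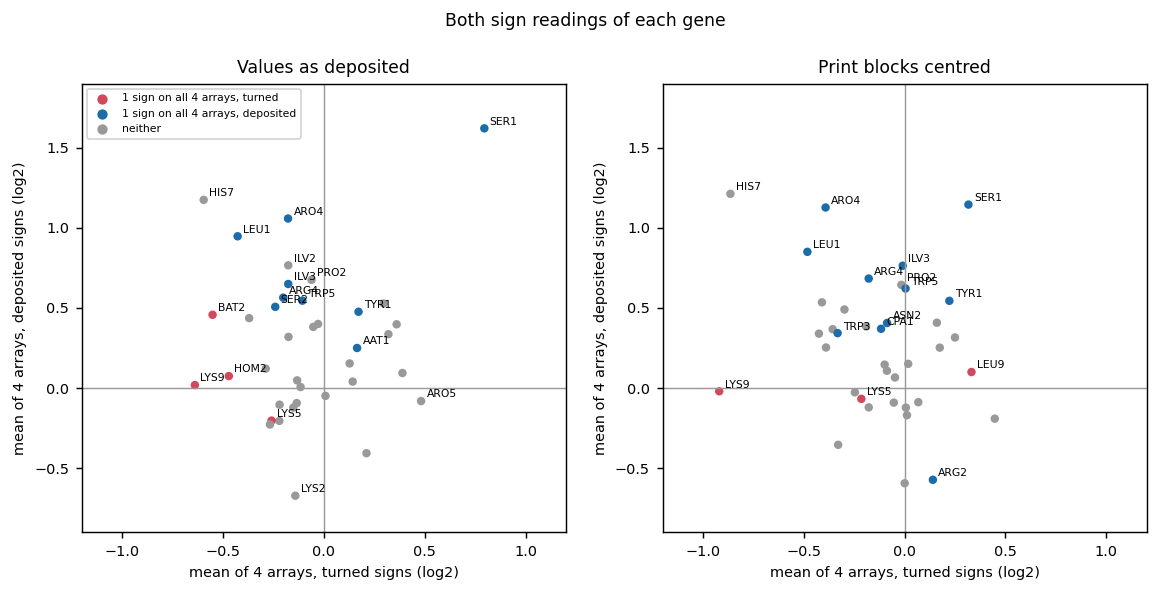
Mean of the 4 arrays in deposited signs (vertical axis) against the mean in turned signs (horizontal axis) for the 38 genes, both log2, with values as deposited (left) and block-centred (right). Blue genes have 1 sign on all arrays in deposited signs and red genes in turned signs; LYS9 moves from -0.64 to -0.92 in turned signs, and ARO4 and LEU1 keep deposited means of 0.85 or more.

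The arrays can be set against each other over the 38 genes. In deposited signs the members correlated at r = 0.48 between arrays 1 and 2 and 0.43 between arrays 3 and 4, and between -0.23 and 0.04 for the other 4 pairs, as a description over 38 genes that share print blocks. Over all features arrays 1 and 2 correlated at 0.34 and arrays 3 and 4 at 0.22. Turning reverses the sign for each pair of opposite dye orientation, so in turned signs arrays 1 and 2 stood at -0.48 and arrays 3 and 4 at -0.43. After block centring the members' deposited correlations were 0.41 for arrays 1 and 2 and 0.39 for arrays 2 and 3. They were 0.47 for arrays 1 and 3 and 0.22 for arrays 2 and 4, the pairs of 1 dye orientation. Over all features these values were 0.36, 0.27, 0.34 and 0.23. For arrays 1 and 4 and arrays 3 and 4 the members' correlations were near 0, against 0.18 and -0.02 over all features. In turned signs the members' block-centred values were -0.41 for arrays 1 and 2 and -0.39 for arrays 2 and 3.

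Genes linked to these pathways, listed from general knowledge, were measured in part. Of 24 genes of general and nitrogen control 16 were measured, and GCN4 and GCN2 were not among them. None of the 22 linked genes measured passed the threshold in limma's fit. An unadjusted p under 0.05 was found for 1 of them in turned signs (1.88% of features) and 1 in deposited signs (11.7%), and after block centring for 1 (2.62%) and 4 (18.2%). In deposited signs 11 of the 16 means lay above 0, against 46.5% of all features, with a median of 0.20 (11 and 0.27 block-centred). In turned signs 7 lay above 0, against 47.4% of features, with a median of -0.02. Block centring moved this to the other side of 0, with 12 of 16 above 0 (48.5% of features) and a median of 0.06. GCN20, which acts with Gcn1 to activate the kinase Gcn2, read 0.48, 0.56, 0.85 and 0.61, a deposited mean of 0.62 ± 0.16. GCN5, a histone acetyltransferase, had the highest deposited mean at 1.26 ± 1.67, with 3.55 on array 2, and DAL80, a repressor of nitrogen genes, the lowest at -0.64 ± 0.89. Block-centred these means were 0.79 for GCN5, -1.12 for DAL80 and 0.55 for GCN20. RTG2, a sensor of mitochondrial signalling, averaged -0.87 ± 1.52 in turned signs, with -3.10 on array 2, and URE2, a regulator of nitrogen use, averaged 0.45 ± 0.57 (-0.81 and 0.49 block-centred). The turned mean of GCN5 was 0.48 ± 2.15 (0.00 block-centred), and the deposited mean of RTG2 was -0.55 ± 1.71 (-0.50 block-centred). For breakdown of amino acids, 4 of 10 listed genes were measured, with a deposited median of 0.26 and a turned median of -0.16. For glycine and one-carbon transfer 2 of 7 were measured, SHM2 at -0.79 ± 0.25 and GCV1 at -0.13 ± 0.45 in turned signs (-0.63 and -0.07 block-centred). In deposited signs SHM2 averaged 0.10 ± 0.94 and GCV1 0.35 ± 0.26 (0.22 and 0.40 block-centred). There GCV1 was above 0 on all 4 arrays, at 0.23, 0.30, 0.72 and 0.14.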

How the data were processed

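Two-colour spotted arrays of yeast open reading frames were analysed from the deposited table of log2 ratios, with 1 value per probe and array. The values were made with limma 3.2.1, per the submitters' processing notes. For background correction, normalization, log base and direction neither the labels nor the table give any detail, and no intensities were used, so signal over background is unknown. The table holds 6216 probes, of which 6162 have a value on all 4 arrays and 54 have none. In the platform annotation 3344 probes carry 1 symbol, 387 several and 2485 none. All 38 member symbols were found in the R64 gene table.

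Probes of a gene were averaged. Each reading (deposited signs, or the sign of arrays 1 and 3 turned) was fitted over all 5946 features with limma 3.58.1 in R 4.3.3 (lmFit with an intercept, eBayes), with Benjamini-Hochberg adjustment at 0.05. Arrays were grouped by dye orientation, 2 in each. An exact sign-flip test over 4 arrays cannot give a p below 0.125, so none is reported. The code was tested on simulated data. Alternatives left out each array, centred print blocks, scaled arrays, weighted arrays, took the first probe of a gene, averaged opposite dye orientations, used robust shrinkage or tested only features with 1 symbol. A fit with both readings as coefficients was added after the data were seen.

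The members, pathway groups and linked genes were chosen with earlier results of these data known. ARO5 was placed in its group after its values were seen. All members are named. Values on each array were required for members with 1 sign on all arrays, the highest and lowest means and isoenzyme pairs, and linked genes are named by their 2 highest and 2 lowest means, with GCV1 added after its values were seen.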

Additional observations from a re-analysis of the deposited data

Results flagged for a closer look

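For 2 serine genes, 1 array stood apart from the other 3 by Dixon's criterion (the gap to the nearest other value over the range, above the critical value for 4 samples). SER1 read 4.30 on array 2 in deposited signs, while its other arrays lay between 0.54 and 1.03 (gap over range 0.869). SER2 read 1.16 on array 1, with the others between 0.26 and 0.34 (0.919). Of 78 sets of 4 values examined, 2 exceeded the criterion, and chance alone gives about 3.9 (1 in 20).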

How the results depend on the processing

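No member passed the threshold in turned signs under any alternative run. In deposited signs 1 member, SER1, passed once array 1 was averaged with array 2, and array 3 with array 4 (limma adjusted p = 0.0452), and 7 features passed there. In turned signs the number of features passed was 0 to 1 when 1 array was left out (1 without array 1), 4 with array weights, 2 with arrays 1 and 2 and arrays 3 and 4 averaged, and 4 with arrays 1 and 4 and arrays 3 and 2 averaged. Leaving out 1 array changed the sign of the median for 6 of 10 pathways with 2 or more genes in turned signs and for 3 of 10 in deposited signs. The turned median then ran from -0.39 to 0.67 for serine, -0.60 to 0.07 for the branched chain, -0.12 to 0.25 for aspartate, asparagine and alanine, and -0.59 to -0.13 for lysine. The deposited median ran from -0.18 to 0.31 for arginine and from 0.15 to 0.31 for the aspartate group. With array weights the deposited median of the aromatic genes was 0.25 and that of the arginine genes -0.25. The cause of these shifts was not tested. Leaving out some array turned the sign of 21 of 38 member means in turned signs and of 14 in deposited signs, and block centring turned 4 and 6. Without array 1, 20 members had a turned mean above 0 in place of 12, and without array 2 there were 9. Averaging 2 arrays leaves 2 values per feature and little to estimate the spread from. The labels share no replicate number between the dye orientations, so neither of the 2 pairings run above is the study's own. Pathways with 1 gene (histidine, proline) have no median of their own beyond that gene. A trend in the shrinkage was not run, since it needs intensities.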

Other observations

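The print blocks 33 to 48 held 16 of the 38 genes, a division made after the values were seen. On arrays 1 to 4 the medians of these blocks over all probes ran from -0.57 to 0.87, -0.13 to 1.83, -0.56 to 0.10 and -0.53 to 0.08. In deposited signs the median of the 16 genes was 0.39 (0.36 block-centred), with array medians of 0.71, 1.34, -0.11 and -0.39. That of the other 22 was 0.08 (0.20 block-centred), with array medians of 0.08, 0.10, 0.38 and 0.24. In turned signs the medians were -0.08 and -0.16. SHM2, a cytosolic serine hydroxymethyltransferase, which turns serine into glycine and is no member, read -0.86, -0.96, -0.92 and -0.42 in turned signs, a mean of -0.79 ± 0.25 (limma adjusted p = 1.00). Its deposited mean was 0.10 ± 0.94.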
